A study of Mus musculus with 4 samples.

Results

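The keratin gene clusters of the mouse are 2 regions, and they were described here by every genomic probe of the array whose midpoint lay in either region on build mm9. The type I cluster spans chromosome 11 from 98900001 to 100200000 (1.3 Mb, 117 probes) and holds the type I keratin genes and the keratin-associated protein genes. The type II cluster spans chromosome 15 from 101100001 to 102000000 (0.9 Mb, 91 probes) and holds the type II keratin genes. Together they have 208 of the 170183 probes on autosomes and X, and all 208 were usable on all 4 arrays. The 1 Mb on either side of each cluster served as its neighbourhood, with 211 usable of 212 probes around type I and 187 of 189 around type II.

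The cells were mouse embryonic fibroblasts (MEFs), connective tissue cells grown from embryos, and replication timing was read from 1 array of 2 colours per group. The groups were control MEFs (line 362.2 in the sample label), Suv4-20h KO MEFs whose label gives deletion of the floxed SUV4-20H1 allele, and a Suv4-20h mutant in a non-induced and an induced state. Suv4-20h1 and its relative Suv4-20h2 are enzymes that methylate lysine 20 of histone H4. The labels describe 4-hydroxytamoxifen for the deletion and do not say how the mutant was induced, how many animals or clones the lines came from, or the age of the embryos, and their protocols give the line as 364.2. Cells took up the nucleotide analogue BrdU and were sorted by DNA content into fractions S1 (early) and S2 (late), and timing is the log2 ratio of early (Cy3) over late (Cy5) signal, centred on the autosomal median. A higher value means earlier replication, and 0 is the middle autosomal probe. As every group is a single array, the spread between cultures is unknown and groups could not be tested against each other, so each standard error (SE) is over probes of a region on these arrays. The arrays hold DNA, so the fibroblast identity of the cells was not checked against marker genes.

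Keratins form the intermediate filaments of epithelial cells, in which a type I protein pairs with a type II protein. Krt5 and Krt14 pair in the basal layer of skin, Krt1 and Krt10 in its upper layers, and Krt8 and Krt18 in simple epithelia. Keratin-associated proteins embed the hair keratins in the hair shaft. Fibroblasts build their filaments from vimentin, and most keratin genes are silent in them. In mammalian cells, early S phase generally copies gene-rich and active chromatin and late S phase copies compact and silent chromatin.

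The files give probe positions but no gene names, and the gene table at hand (RefSeq, GRCm38.p6) is on a different build. Probes were therefore not assigned to genes, and only gene order and promoter letters were used. In that order, 12 type I keratin genes from Krt222 to Krt40 come first, 23 keratin-associated genes from Krtap3-3 to Krtap17-1 follow, and 15 type I keratin genes from Krt33a to Krt42 close the type I cluster. Krt10 and Krt12, the keratin of the cornea, lie in the first block, and Krt13, Krt15, Krt19, Krt14, Krt16 and Krt17 in the last. No keratin gene lay between keratin-associated genes. The type II cluster runs from Krt80 and Krt7 over the hair keratins Krt81 and Krt86 and over Krt5 and Krt1 to Krt8, and ends with Krt18, a type I gene.

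The promoters of the clusters differ in letters, and 4 are shown because they mark the range from a CpG-free hair gene to a CpG-rich gene of simple epithelia. Each is the 120 bases before the start site from RefSeq (GRCm38.p6), 5′ to 3′, with TATAAA and each CG in capitals.
Krt10 (chr11:99389365-99389484, minus strand): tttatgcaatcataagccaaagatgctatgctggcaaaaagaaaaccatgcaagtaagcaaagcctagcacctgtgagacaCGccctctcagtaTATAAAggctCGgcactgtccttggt
Krtap4-2 (chr11:99635085-99635204, minus strand): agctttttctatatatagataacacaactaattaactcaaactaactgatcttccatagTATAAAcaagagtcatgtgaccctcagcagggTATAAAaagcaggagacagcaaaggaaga
Krt5 (chr15:101712906-101713025, minus strand): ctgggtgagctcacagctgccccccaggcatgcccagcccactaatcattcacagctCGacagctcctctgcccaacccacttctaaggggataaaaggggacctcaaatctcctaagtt
Krt18 (chr15:102028096-102028215, plus strand): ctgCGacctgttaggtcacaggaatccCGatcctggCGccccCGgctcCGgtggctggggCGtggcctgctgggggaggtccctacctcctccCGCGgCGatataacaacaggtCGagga
Krt10 has 1 TATAAA and 2 CG in this stretch, Krtap4-2 has 2 and 0, Krt5 has 0 and 1, and Krt18 has 0 and 10.

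Over the 300 bases the table gives per promoter (250 before and 50 after the start), TATAAA on either strand was found in 20 of 21 keratin-associated promoters, in 13 of 21 type I keratin promoters and in 6 of 16 promoters of the type II cluster. Of all 32851 promoters in the table, 13.6% held it. Median CG counts were 2 in keratin-associated, 5 in type I keratin and 6 in type II cluster promoters, against 7 in all promoters. No CG at all was present in 8 of the 21 keratin-associated promoters, against 5.43% of all promoters. The table held promoters for 21 of 23 keratin-associated genes, 20 of 27 type I keratin genes and 16 of 26 genes listed for the type II cluster. A match is a description of letters, and timing was not measured per promoter.

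Over all genomic spots, median background-subtracted signal lay between 140 and 204 for early DNA and between 220 and 434 for late DNA, and 88.6 to 94.7% of spots had early and late signal well above background. Control and KO lay on 1 slide, and non-induced and induced on another. From the 10th to the 90th percentile, 200 kb windows spanned 1.81 (control), 2.31 (KO), 2.07 (non-induced) and 2.70 (induced), so differences between arrays are also given after scaling arrays to the same spread where that changes them. Of 134 Y chromosome spots, 58 passed that limit on the control array, 117 on KO, 61 on non-induced and 49 on induced. Control and KO differ in this count, and its part in the KO differences was not tested.

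Both clusters replicated early on average on all arrays. Mean timing over the 117 probes of the type I cluster was, with its SE, 0.63 ± 0.05 (control), 0.79 ± 0.06 (KO), 0.46 ± 0.07 (non-induced) and 0.47 ± 0.08 (induced). The 91 probes of the type II cluster had 0.83 ± 0.06, 0.68 ± 0.07, 0.77 ± 0.07 and 0.94 ± 0.07 in the same order. The type I means stood above 77.6, 82.2, 68.3 and 67.0% of the 12000 windows of the genome, and the type II means above 87.2, 76.1, 82.0 and 82.1%. Median windows of the genome were at -0.16 (control), -0.39 (KO), -0.26 (non-induced) and -0.51 (induced), and those of chromosome 11 at 0.39, 0.46, 0.46 and 0.62. Chromosome 15 had medians of 0.13, -0.068, -0.074 and -0.14, so the type II cluster was earlier than the middle window of its chromosome on each array. The type I cluster was earlier than the middle window of chromosome 11 on control and KO, level with it on non-induced (0.46 for both) and later on induced (0.47 against 0.62).

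The neighbourhoods were early as well. The flanks of type I had means of 0.72 ± 0.04 (control), 0.67 ± 0.04 (KO), 0.61 ± 0.05 (non-induced) and 0.96 ± 0.05 (induced). The flanks of type II had 0.73 ± 0.04, 0.72 ± 0.04, 0.84 ± 0.04 and 1.02 ± 0.05. The type II cluster minus its flanks was 0.10 ± 0.07 (control), -0.037 ± 0.08 (KO), -0.065 ± 0.08 (non-induced) and -0.071 ± 0.08 (induced), each less than 2 SE, so at this probe number it could not be told from its neighbourhood. The type I cluster minus its flanks was -0.088 ± 0.07, 0.12 ± 0.07, -0.14 ± 0.09 and -0.48 ± 0.09, and only the induced value was more than 2 SE from 0. Averaged over arrays, the contrast was -0.15 for type I and -0.018 for type II. The type I average was -0.037 without the induced array and -0.24 without KO, so single arrays set its size.

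Bins of 100 kb inside type I showed that this mean joins different parts. The 13 bins ran from -0.13 to 1.16 (control), 0.12 to 1.37 (KO), -0.68 to 1.30 (non-induced) and -0.90 to 1.31 (induced). Bins below 0 numbered 1 (control), 0 (KO), 4 (non-induced) and 4 (induced). The 4 bins below 0 on the non-induced array form a run from 99400001 to 99800000 on chromosome 11, with 31 probes, called the central stretch from here on. It was chosen after its values on that array were seen. Control and KO values took no part in the choice, while values of the non-induced array in it are a description only. Induced values took no part either, but that array's type I profile was close to the non-induced one (Pearson's r 0.86 over probes). Its low values in the stretch are therefore not independent of the choice. Which keratin or keratin-associated genes lie in it was not tested, since no mm9 gene positions were used here.

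**Figure D1:**
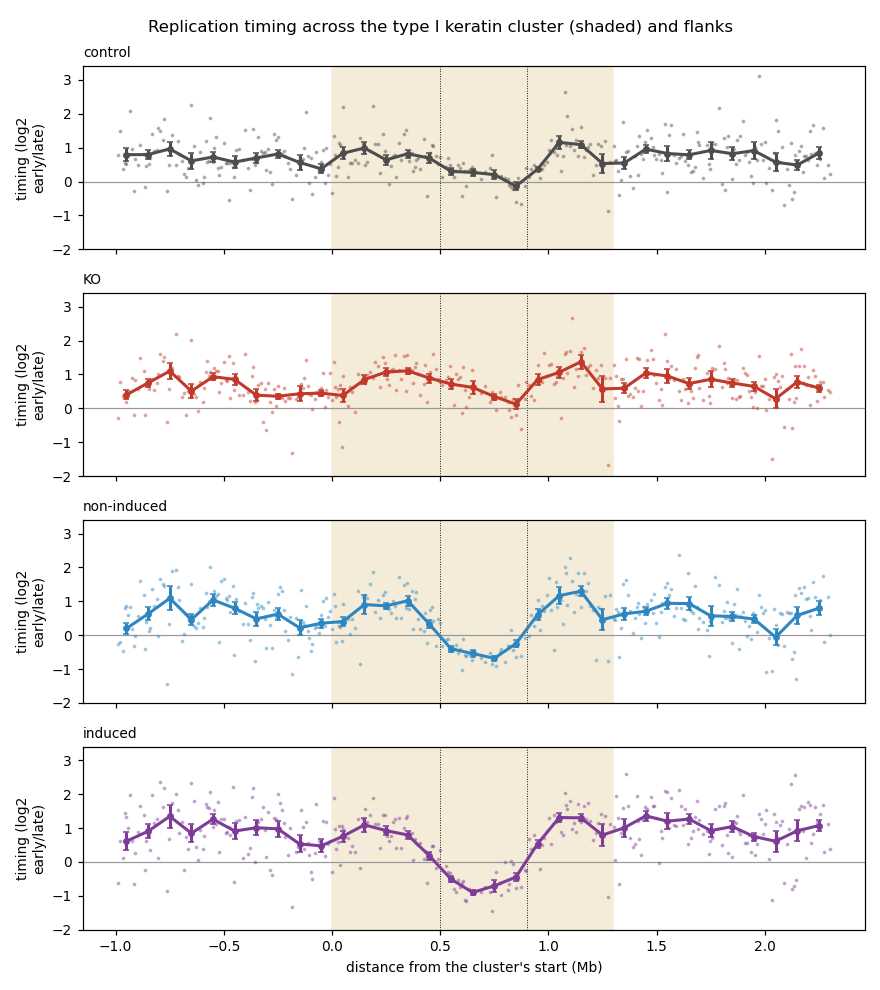
Timing (log2 early over late, y axis) across the type I cluster (shaded) and 1 Mb on each side, against distance from the cluster's start in Mb, with a panel for each array. Small points are single probes, joined points are means of 100 kb bins with bars of 1 SE over probes, and dotted lines bound the central stretch, which lies lowest on the non-induced and induced arrays (-0.45 and -0.61 on average) and above 0 on average on control and KO (0.15 and 0.44).

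Over its 31 probes the central stretch had a mean timing of 0.15 ± 0.07 (control), 0.44 ± 0.08 (KO), -0.45 ± 0.05 (non-induced) and -0.61 ± 0.06 (induced). Probes below 0 numbered 9 of 31 (control), 6 (KO), 29 (non-induced) and 29 (induced). By mean timing, KO was therefore the earliest and induced the latest of the 4 arrays here, with the control between them. These means stood above 61.7 (control), 67.0 (KO), 42.2 (non-induced) and 47.8% (induced) of the windows of the genome. By that rank the non-induced array was the latest. Early and late signal of all 31 probes was well above background on each array, and the largest gap between neighbouring probes was 40103 bp, against a median spacing of 10218 bp in the whole cluster.

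Bin by bin, the run began at 99400001 to 99500000 with 0.30 (control), 0.72 (KO), -0.40 (non-induced) and -0.51 (induced) over 9 probes. The next bin, 99500001 to 99600000, had 0.27, 0.62, -0.54 and -0.90 over 6 probes, the lowest induced value of the cluster. From 99600001 to 99700000 the values were 0.21, 0.35, -0.68 and -0.70 over 7 probes, the lowest non-induced value. The last bin, 99700001 to 99800000, had -0.13, 0.12, -0.25 and -0.44 over 9 probes and was the lowest bin of the cluster on the control and KO arrays. The arrays thus stood furthest apart in the first 3 bins and came closer in the last, where control and non-induced differed by 0.11 ± 0.07.

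The parts of type I beside the stretch were early on all arrays. The 51 probes before it had means of 0.79 ± 0.07 (control), 0.86 ± 0.07 (KO), 0.70 ± 0.08 (non-induced) and 0.75 ± 0.08 (induced). The 35 probes after it had 0.83 ± 0.10, 0.997 ± 0.12, 0.93 ± 0.12 and 1.03 ± 0.10, where the largest difference between arrays was induced minus control at 0.19 ± 0.07. The earliest bins were 99900001 to 100000000 in control and induced cells (1.16 and 1.31) and 100000001 to 100100000 in KO and non-induced cells (1.37 and 1.30). The steepest rise between neighbouring bins was at 99800000 on the KO (0.72), non-induced (0.85) and induced (0.98) arrays, and at 99900000 on control (0.79). The steepest drop was at 100100000, past the stretch, on control (-0.56), KO (-0.80) and non-induced (-0.84). On the induced array it was at 99400000 (-0.69).

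Set against its flanks on the same array, the central stretch lay at -0.57 ± 0.08 (control), -0.23 ± 0.09 (KO), -1.05 ± 0.07 (non-induced) and -1.56 ± 0.08 (induced). These are contrasts within an array, so the centring of the array does not enter. As a share of each array's span from the 10th to the 90th window percentile they were -31.7, -9.8, -51.0 and -58.0%. The KO value was 0.0033 over odd and -0.45 over even probes, so the size of the KO dip depended on which probes were used. With loess within arrays, the contrast was -0.39 in control and -0.34 in KO cells, which leaves a difference of 0.046 between them in place of 0.35. The larger contrasts of the non-induced and induced arrays ranged from -1.13 to -0.94 and from -1.71 to -1.29 over 13 alternative settings. Low non-induced values chose the stretch, so a low contrast on that array was set by the choice, and its range is a description. Centring on the window median and the deposited ratio left the contrasts at -1.05 and -1.56, so they are no check.

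Type II had no such stretch. From its lowest to its highest of 9 bins it spanned 0.77 (control), 1.04 (KO), 0.86 (non-induced) and 1.12 (induced), against 1.29, 1.25, 1.98 and 2.21 over the 13 bins of type I. The bin from 101500001 to 101600000 (10 probes) was the lowest on 3 arrays, at 0.33 in control, -0.026 in KO and 0.38 in induced cells, and had 0.44 in non-induced cells. On the non-induced array the lowest bin was the next one, 101600001 to 101700000, at 0.37. The 200 kb from 101200001 to 101400000 were the earliest of the 4 windows inside type II on each array, and stood above 95.4% (control), 94.6% (KO), 98.6% (non-induced) and 99.2% (induced) of windows. Probes below 0 numbered 5 of 91 (control), 9 (KO), 10 (non-induced) and 7 (induced).

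**Figure D2:**
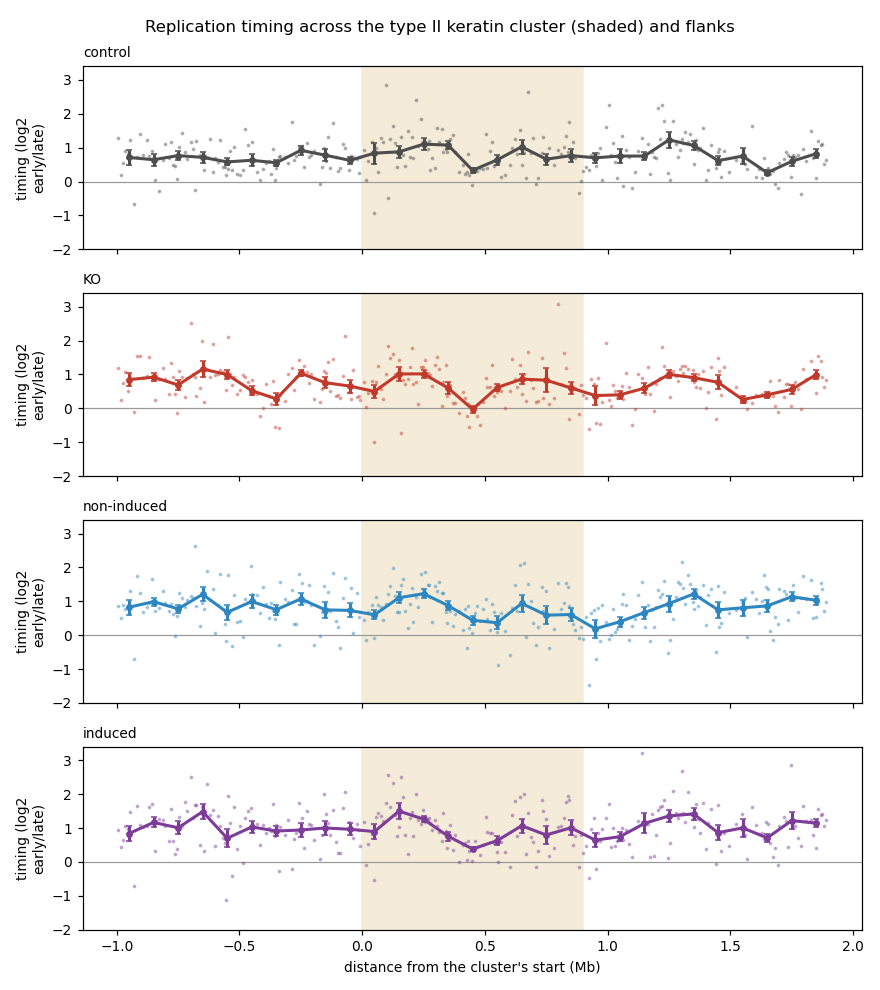
Timing (log2 early over late, y axis) across the type II cluster (shaded) and 1 Mb on each side, against distance from the cluster's start in Mb, drawn as for type I with single probes, means of 100 kb bins and bars of 1 SE over probes. Bin means stay above 0 in the cluster on all arrays except for 1 KO bin at -0.026.

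At the cluster borders, steps between neighbouring bins differed in size by border and array. The bin just outside the start of type I had 0.38 (control), 0.45 (KO), 0.35 (non-induced) and 0.48 (induced), and the bin just inside had 0.84, 0.38, 0.40 and 0.76. At its end the bin inside had 0.53, 0.57, 0.46 and 0.80 and the bin outside 0.55, 0.59, 0.63 and 1.01. For type II, the bins outside and inside the start had 0.63 and 0.84 (control), 0.66 and 0.50 (KO), 0.73 and 0.60 (non-induced), and 0.96 and 0.90 (induced). Inside and outside its end they had 0.77 and 0.70, 0.60 and 0.38, 0.61 and 0.19, and 1.01 and 0.64. Each of these values is above 0, so the borders lay in DNA earlier than the middle autosomal probe.

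The first comparison of the study sets KO against control cells. In the central stretch KO timing was higher than control timing by 0.30 ± 0.05 (SE), with 26 of 31 probes above 0, while the flanks had -0.051 ± 0.04. The stretch value was 0.17 with loess, 0.18 with normexp, 0.20 over even and 0.40 over odd probes, and 0.48 with arrays centred on the median window. Over all of type I the difference was 0.15 ± 0.05 with 87 of 117 probes above 0, and without the stretch it was 0.10 ± 0.06. The type II cluster had -0.15 ± 0.07, with 37 of 91 probes above 0, and its flanks -0.0089 ± 0.04. Across the genome the median probe had -0.091 and 73938 of 169660 probes were above 0, so the type I cluster lay above the median probe and type II within 1 SE of it.

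With all arrays brought to 1 common spread, the KO difference was 0.24 in the central stretch, -0.020 over all of type I, -0.24 in the type I flanks, -0.36 in type II and -0.20 in the type II flanks. The value for type I as a whole was then within 1 SE (0.05) of 0, so its direction was lost, while the stretch stayed above 0. With arrays centred on their median window in place of their median probe, type II had 0.034 ± 0.07, also within 1 SE of 0. The median over windows of the KO minus control difference was -0.16, and the median windows of the arrays themselves differed by -0.23. A region or window was called at a difference of no less than 0.25 of the percentile span on the reference array (0.45 for KO, 0.52 for induced cells) and at least 3 SE. By this rule 0 of 6 windows of 200 kb inside type I and 0 of 4 inside type II were called, where 22.1% of all windows were called later and 8.06% earlier. The largest window difference in type I was 0.39 ± 0.06 from 99400001 to 99600000, above 89.1% of windows of the genome. In type II it was -0.42 ± 0.10 from 101400001 to 101600000, short of the limit. After scaling, 1 type II window was called later, and with loess 1 type II window was called later and 1 type I window earlier. The shares of all windows called under those other settings were not counted.

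Among 100 kb bins of type I, 10 of 13 had a higher KO value, against 8 of 20 in its flanks. The highest difference was 0.48 ± 0.16 from 99800001 to 99900000, just after the stretch, and the lowest was -0.45 ± 0.23 in the first bin of the cluster. In type II, 7 of 9 bins had a lower KO value, against 11 of 20 in its flanks. The lowest difference was -0.48 ± 0.18 from 101400001 to 101500000. The highest was 0.17 ± 0.35 from 101800001 to 101900000, which is within 1 SE of 0. Shares over all 100 kb bins of the genome were not counted, so these counts have no genome background.

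**Figure D3:**
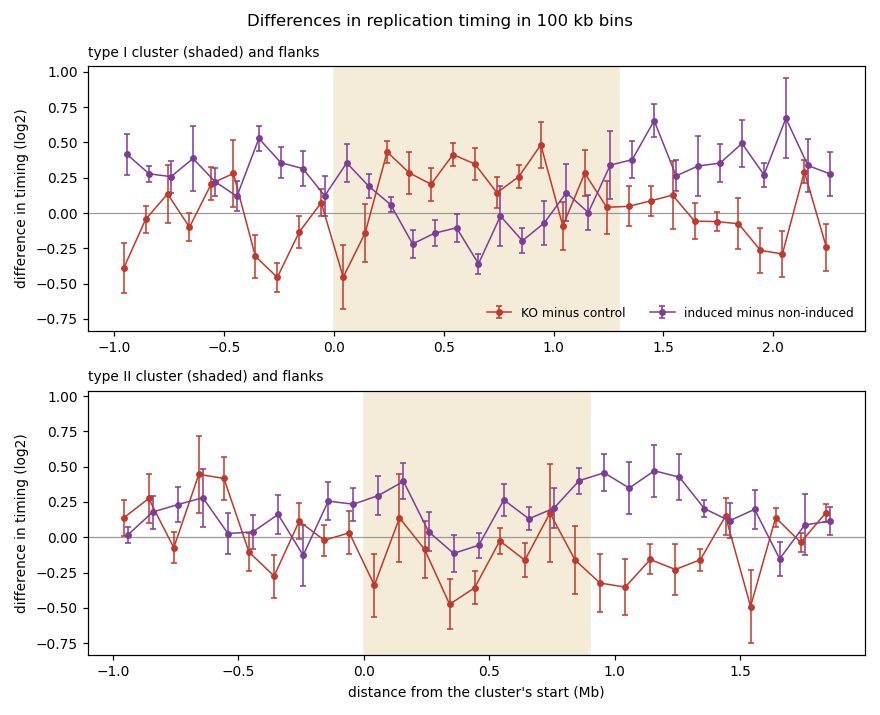
Differences in timing (log2, y axis) in 100 kb bins against distance from the cluster's start in Mb, for KO minus control and induced minus non-induced, with the clusters shaded and bars of 1 SE over probes. In the 4 bins of the central stretch, 0.5 to 0.9 Mb from the start of type I, KO minus control is above 0 and induced minus non-induced below 0 in each, while in the type I flanks induced minus non-induced is above 0 in all 20 bins.

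The second comparison sets induced against non-induced mutant cells, on the other slide. The type I cluster differed by 0.0071 ± 0.04 (SE), with 52 of 117 probes above 0. Its flanks were earlier in induced cells by 0.35 ± 0.03, with 163 of 211 probes above 0. Across the genome 72727 of 169660 probes were above 0. In the central stretch the difference was -0.16 ± 0.06, with 22 of 31 probes lower. The stretch thus stood 0.51 further below its flanks in induced than in non-induced cells, and 0.16 further after scaling. The stretch difference itself was 0.040 ± 0.06 with arrays centred on the median window and 0.0076 ± 0.06 with quantile normalization. Both are within 1 SE of 0, so its sign did not hold. The non-induced array chose the stretch, so this difference is a description.

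The type II cluster was higher in induced cells by 0.17 ± 0.04 (62 of 91 probes above 0), as were its flanks by 0.18 ± 0.03. After scaling, these were -0.054 and -0.065, so their direction turned with the scaling, while the type I flanks kept 0.14 and the type I cluster had -0.11. The median probe of the genome had -0.083, and the median over windows of the difference was -0.13. By the calling rule 0 of 6 windows in type I and 0 of 4 in type II passed, where 11.9% of all windows were called later and 0.467% earlier. In type I, 20 of 20 flank bins were higher in induced cells, against 6 of 13 cluster bins. The share over all 100 kb bins of the genome was not counted. The lowest bin difference inside type I was -0.36 ± 0.07 from 99500001 to 99600000, and the highest was 0.36 ± 0.13 in the first bin. In type II the bins ranged from -0.11 ± 0.13 at 101400001 to 101500000 up to 0.40 ± 0.09 in the last bin.

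The control and non-induced arrays both stand for reference cells, but they lie on different slides, so slide and cells cannot be told apart. Non-induced minus control timing was -0.60 ± 0.07 in the central stretch, with 28 of 31 probes lower, while 82848 of all 169660 probes were higher. Low non-induced values chose the stretch, so this difference and those of its windows are a description. The window from 99400001 to 99600000 had -0.75 ± 0.05 and was called later, as 10.7% of all windows were (8.22% earlier), and lay below all but 3.89% of windows. The window from 99600001 to 99800000 had -0.45 ± 0.12. With windows of 100 kb 3 of 13 in type I were called later, with 400 kb 0 of 2, and with loess 2 of 6. The shares of all windows called under these other settings were not counted, so these counts have no background to be read against. Without the stretch, type I differed by -0.017 ± 0.07 and type II by -0.054 ± 0.07. After scaling, these were -0.14 ± 0.08 and -0.18 ± 0.07. Set across slides, induced minus KO was -1.05 ± 0.10 in the stretch, with 30 of 31 probes lower, and 0.28 ± 0.04 in the type I flanks. The share of all probes lower in this pair was not counted, so that count has no background. It is a description too, since the induced profile was close to the non-induced one that chose the stretch.

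The channels were also read apart, each as log2 signal relative to its autosomal median. In the central stretch, early signal was 0.43 (control), 0.87 (KO), 0.41 (non-induced) and 0.31 (induced). Late signal was 0.26 (control), 0.36 (KO), 0.92 (non-induced) and 0.93 (induced). KO thus differed from control mainly in the early channel (0.44 ± 0.06, against 0.099 ± 0.06 in the late channel). Non-induced differed from control in the late channel (0.66 ± 0.09, against -0.014 ± 0.10 in the early channel).

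In the rest of type I, both channels were higher in KO and in non-induced cells than in control. There, KO minus control was 0.46 ± 0.07 in the early and 0.31 ± 0.05 in the late channel. Non-induced minus control was 0.66 ± 0.07 in the early and 0.75 ± 0.09 in the late channel. The early KO difference was thus alike in and beside the stretch (0.44 and 0.46), and the late one was lower in it (0.099 against 0.31). For non-induced minus control the late difference was alike in and beside the stretch (0.66 and 0.75), and the early one was lower in it (-0.014 against 0.66). In the type I flanks, induced minus non-induced was 0.051 ± 0.03 in the early and -0.35 ± 0.03 in the late channel, against -0.10 ± 0.06 and 0.0049 ± 0.06 in the stretch.

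**Figure D4:**
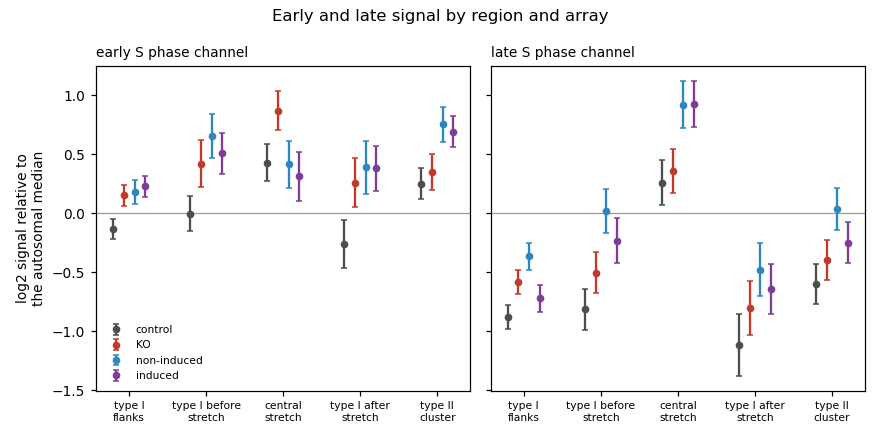
Early (left) and late (right) channel signal, as log2 relative to the autosomal median of the channel (y axis), in the type I flanks, the parts of type I before, in and after the central stretch, and the type II cluster, with a colour for each array and bars of 1 SE over probes. The stretch has the highest late signal of the 5 regions on each array, at 0.92 and 0.93 in non-induced and induced cells. On control and KO it also has the highest early signal of the 5 regions (0.43 and 0.87), so high late signal alone does not mean late replication.

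Profiles of the arrays along the clusters were alike to different degrees, which is given as a description over probes that the arrays share. Over the 117 type I probes, Pearson's r was 0.86 between non-induced and induced cells, 0.61 between control and KO, 0.62 between control and non-induced, and lowest at 0.50 between KO and induced cells. Over the 91 type II probes, it was 0.80 between non-induced and induced cells and lowest at 0.39 between control and KO. By bins of 100 kb, non-induced and induced were again the most alike pair in type I (0.97 over 13 bins), while in type II KO and induced had 0.84 and non-induced and induced 0.83 over 9 bins.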

How the data were processed

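Scanner files of 4 arrays were used. Per the file headers, signals were extracted with Agilent Feature Extraction 11.5.1.1 (the submitters' processing notes name 9.1), and processed signals are intensity values after background subtraction, detrending and a linear dye factor. The deposited ratio, on a log10 scale, sets late (Cy5) over early (Cy3); flags of spot quality, per the file headers, are 0 or 1. Flagged outlier spots (154 to 447 of 174305 genomic spots per array) were dropped, and log2 early over late signal was averaged per probe and centred on the autosomal median; 169660 probes were usable. Windows of 200 kb needed 5 probes (12000 windows); bins were 100 kb. Each group has 1 array, so values are means over probes and no p was computed. Calls were tested on simulated data with known shifts. Members and gene lists were chosen with earlier results of these data known. The rule for named regions took bins by coordinates, since the files hold no gene names: the earliest and latest bin of each cluster (given per array), the bins of largest change and the edge bins; the central stretch and the promoters shown were added after values were seen. Alternatives covered scaling, quantile normalization, loess, normexp (offset 50, raw median signals), the deposited ratio, centring, dim and flagged spots, odd and even probes, medians, trend, flank width and reference array. Having only 1 array for each group limits precision. Tools were Python 3.11.15, numpy 2.4.6, pandas 2.3.3, R 4.3.3 and limma 3.58.1.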

Additional observations from a re-analysis of the deposited data

Results flagged for a closer look

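In 4 regions the mutant minus reference difference had opposite signs in the 2 cell systems; whether they differ was not tested, since each group is 1 array. In the central stretch of the type I cluster, KO minus control was 0.30 and induced minus non-induced -0.16, a gap of 0.46. In the type I flanks these were -0.051 and 0.35, a gap of -0.40. In the type II cluster they were -0.15 and 0.17, a gap of -0.32. In the type II flanks they were -0.0089 ± 0.04, within 1 SE of 0, and 0.18, a gap of -0.19. With a common spread for all arrays, the type II cluster and flanks were below 0 in both comparisons. In the central stretch, induced minus non-induced was -0.021 with that spread. It was 0.0076 with quantile normalization and 0.040 with arrays centred on the median window, where KO minus control was 0.29 and 0.48. The signs in the stretch were thus no longer opposite under quantile normalization or that centring, with induced minus non-induced within 1 SE of 0.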

How the results depend on the processing

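A value was taken as unmoved when it stayed within 1.96 SE over probes. KO minus control over type I (0.15) became -0.020 with a common spread for all arrays, 0.34 with arrays centred on the window median, 0.26 over probes well above background and 0.32 against the non-induced array. Over type II (-0.15) it was -0.36 with scaling and 0.034 with that centring. Induced minus non-induced over type I (0.0071) was -0.11 with scaling, 0.21 with that centring, -0.072 without the linear trend on timing and -0.16 against the control array. Over type II (0.17) it was -0.054 with scaling, 0.065 with quantile normalization, 0.084 with normexp, 0.37 with that centring and 0.021 without the trend. The contrasts of the clusters with their flanks, averaged over arrays, stayed within that limit in all 13 processing alternatives each. They ran from -0.22 to -0.076 for type I and from -0.053 to -0.0050 for type II. Centring cannot change a contrast within an array, so that alternative could not move them, and the deposited ratio left them at -0.15 and -0.018. With each array left out in turn, a choice made after seeing the data, the type I contrast ranged from -0.24 (without KO) to -0.037 (without induced). The type II contrast then ranged from -0.058 to 0.00032. Leaving aside the swapped reference array, since non-induced values chose the central stretch, KO minus control there was above 0 in 12 of 12 alternatives (0.17 to 0.48), 6 of which moved it. Induced minus non-induced there was below 0 in 10 of 12 (-0.17 to 0.040). Some of these alternatives could hardly change the stretch. Probes well above background, the deposited ratio and kept flagged spots each left the differences at 0.30 and -0.16, so they are no independent check. No paired analysis was possible because each group has 1 array. The single array per group and 31 probes limit what the stretch can show.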
